A study of Mus musculus with 6 samples.

Results

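The p53 pathway genes described here are Trp53, the gene of the p53 protein, with regulators of p53 and genes known as p53 targets, 32 mouse genes in all. They were taken by symbol and not by a measured value, although earlier results of these data were known. Cdkn1a and the BCL2 family genes were left out of the set. Probes of the array were matched to symbols through their RefSeq accessions, which gave 39 probes for the 32 genes. Of these genes, 31 were measured, among 22056 genes and accessions tested on the array, of which 15368 had a symbol and 6688 an accession only.

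RNA came from C2C12 cells, an established line of mouse myoblasts that divide in rich medium and fuse into myotubes when they differentiate. Cells of both groups were grown with 10% serum to 70 to 80% confluence and received a small interfering RNA, written in the labels as 20 um, that was either a negative control (siRNA-NC) or aimed at Meg3 (siRNA-MEG3), a long noncoding RNA known for its ties to p53. Each group had 3 one-colour Agilent arrays labelled as biological replicates. The time from transfection to RNA, and whether the arrays came from separate cultures, were not given in the sources used here, so each p-value reflects only how far these arrays spread, which may be technical. The study's question was what loss of MEG3 does to gene expression in these myoblasts, and the genes below describe its p53 side.

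p53 is a transcription factor that is kept scarce in unstressed cells. Mdm2 and Mdm4 bind it, and Mdm2 marks it for destruction, while kinases of the DNA damage response free it from them. Freed p53 binds short elements near its target genes and raises genes that halt the cell cycle, repair DNA, limit oxidative stress or kill the cell, and it raises Mdm2 as well, which closes a feedback loop. Much of this control acts on the protein, which an array of RNA does not measure. In dividing myoblasts p53 is known both for guarding the genome and for a part in leaving the cell cycle.

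A look at the promoters shows how unevenly the DNA element that p53 binds is spread over the members. The p53 decamer, the shorter unit of which a full p53 site holds 2, was searched on both strands in 300 bases of RefSeq promoter (GRCm38.p6), 250 before and 50 after the annotated gene start. It was present in 11 of 31 promoters (35.5%), belonging to 10 of the 25 members that had a promoter in the table, and in 2745 of all 32851 promoters (8.36%). No member's promoter held a full site with a spacer of up to 13 bases, and 24 of all promoters did. The search used no expression value. The windows below are 60 bases long, run 5′ to 3′ along the gene's strand and carry the decamer in capitals. They are shown for Trp53, for the feedback genes Mdm2, Ppm1d and Ccng1, and for Aen, because these genes belong to p53's own circuit and the results return to them.
Trp53: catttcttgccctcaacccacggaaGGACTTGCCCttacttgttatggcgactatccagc
Mdm2: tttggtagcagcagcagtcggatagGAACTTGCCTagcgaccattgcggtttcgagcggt
Ppm1d: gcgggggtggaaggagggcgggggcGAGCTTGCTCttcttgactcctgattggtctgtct
Ccng1: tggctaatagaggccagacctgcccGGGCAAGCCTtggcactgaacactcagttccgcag
Aen: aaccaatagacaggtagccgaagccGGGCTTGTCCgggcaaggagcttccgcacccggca
On GRCm38.p6 the Trp53 window is chr11:69580259-69580318 on the plus strand, with the decamer starting 75 bases before the gene start. The Mdm2 window is chr10:117710910-117710969 on the minus strand, with the decamer 186 bases before the start. The Ppm1d window is chr11:85311097-85311156 on the plus strand, 132 bases before the start. The Ccng1 window is chr11:40755437-40755496 on the minus strand, 185 bases before the start. The Aen window is chr7:78895912-78895971 on the plus strand, and its decamer lies 121 bases before one annotated start and 10 bases after the start of the other Aen promoter, so that it is counted in both. A match describes these letters in this window and is not a measured binding site, and known p53 elements of several members lie in introns that were not searched.

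All values are log2 signal relative to the 75th percentile of the same array, so 0 is the level of a probe at that percentile, and a difference is siRNA-MEG3 minus siRNA-NC. Of the spots for the array's 39429 probes, 62.8 to 75.2% per array stood well above background, no spot was saturated, and 30 of the 31 measured members stood well above background on all 6 arrays. In each group arrays 1 and 3 were nearly the same. In 227 probes printed 10 times, the deviations of siRNA-MEG3 arrays 1 and 3 correlated at 0.98, against -0.19 to 0.52 for the other pairs, and siRNA-NC arrays 1 and 3 differed by no more than their own repeat spots did (variance ratio 1.04, against 159.0 for arrays 1 and 2). The same ratio was 2.10 for siRNA-MEG3 arrays 1 and 3 and 1.33 for siRNA-MEG3 arrays 1 and 2. Each ratio is scaled by the spot noise of its own pair, so the ratios do not show which pair was closer. The log2 differences between probe means had an SD of 0.0204 for arrays 1 and 3 and 0.137 for arrays 1 and 2. All 3 siRNA-MEG3 arrays may thus be technical repeats. Each pair of arrays 1 and 3 was averaged into a single sample, so that n = 2 in each group. Regions of dark spots covered 21.6%, 5.95% and 20.5% of the spots of siRNA-MEG3 arrays 1, 2 and 3 and none of the siRNA-NC arrays. The groups were scanned in different sessions, so scan and group cannot be told apart. The probes of Meg3 itself were too dim to measure, so the knockdown was not checked here.

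**Figure D1:**
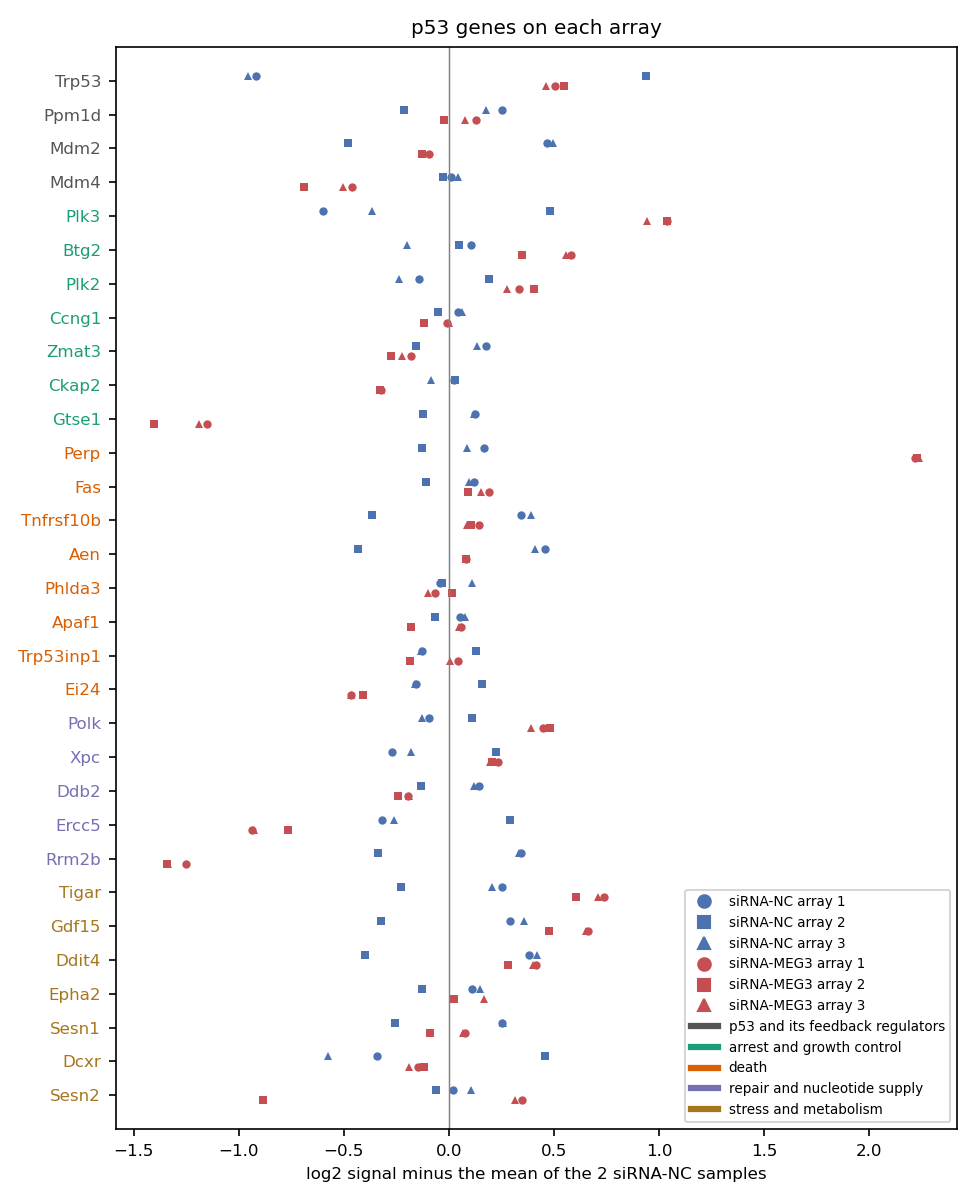
Log2 signal on each array minus the mean of the 2 siRNA-NC samples (x axis) for the 31 measured p53 pathway genes (y axis, names coloured by role), with siRNA-NC arrays in blue and siRNA-MEG3 arrays in red, circles for array 1, squares for array 2 and triangles for array 3. The blue squares of Trp53, Mdm2 and Aen lie far from the other blue points, and the red points of Perp lie furthest from 0.

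The 31 measured genes showed no common direction. Perp alone passed the threshold (limma, Benjamini-Hochberg adjusted p below 0.05 over all genes tested), and it rose. That is 1 of 31 members, where 1.52% of all genes tested were called in either direction, 1.1% higher and 0.417% lower, so a single call among the members is close to the rate over the whole array. The difference was above 0 for 15 members and below 0 for 16, with a median of -0.01 against 0.06 over all genes tested. The median size of the difference was 0.28 for members and 0.38 for all genes, and 22 of the 31 members differed by less than 0.5. With 2 samples per group the 95% interval of a member reached a median of 0.65 to either side, a 1.57-fold change, so changes smaller than that were not detectable for a typical member even at an unadjusted p below 0.05. At an unadjusted limma p below 0.05, 5 members stood out, Perp, Gtse1, Rrm2b, Ercc5 and Mdm4, where 19.5% of all genes tested did.

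**Figure D2:**
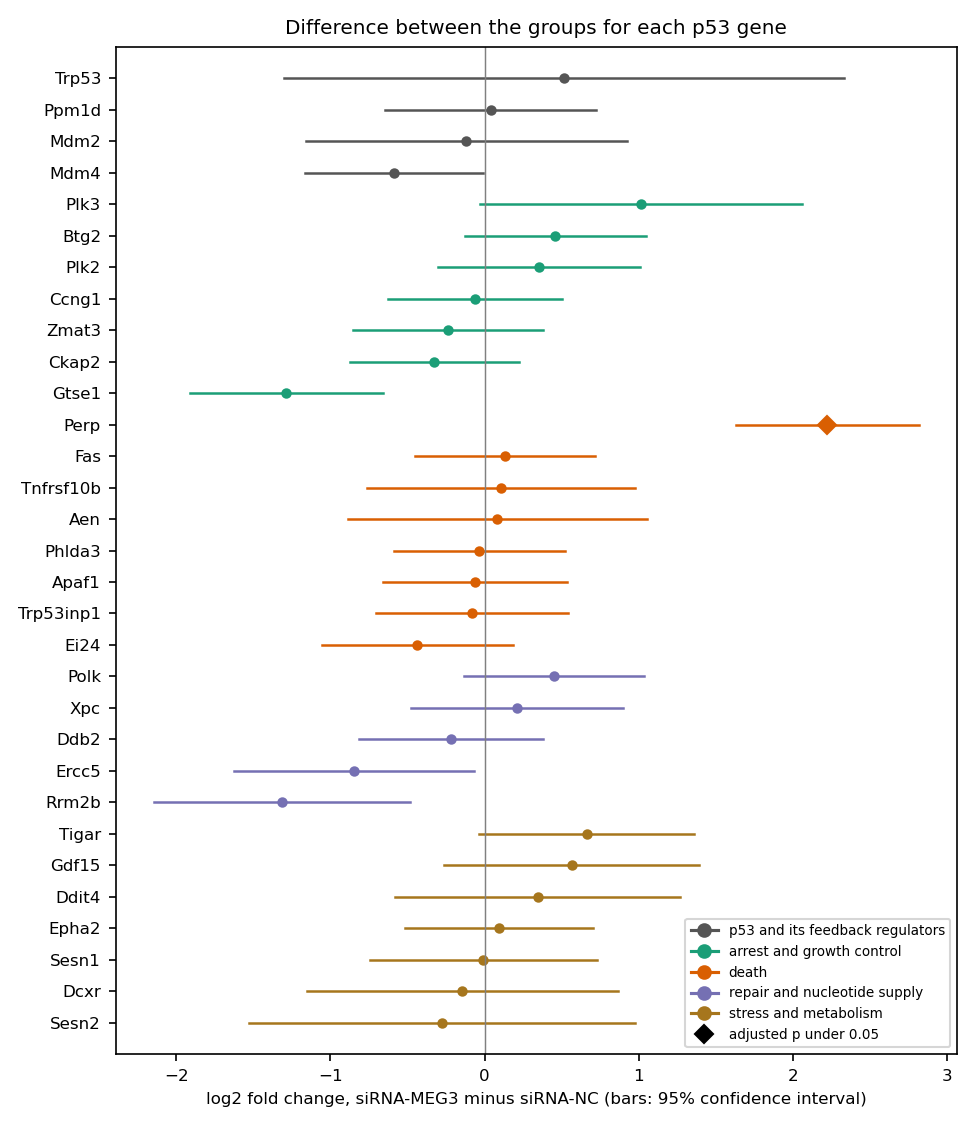
Log2 difference (siRNA-MEG3 minus siRNA-NC, x axis) with its 95% confidence interval from limma for the 31 measured p53 pathway genes, grouped by role (n = 2 samples per group). The interval of Perp, 1.63 to 2.82, lies furthest above 0, and those of Rrm2b and Gtse1 lie furthest below it, although neither passed the adjusted threshold.

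Of p53 and its regulators, none of the 4 passed the test, and their median difference was -0.04. Trp53 stood at -1.78, 0.07 and -1.83 on siRNA-NC arrays 1, 2 and 3 and at -0.36, -0.32 and -0.41 on siRNA-MEG3 arrays 1, 2 and 3. siRNA-NC array 2 was above every siRNA-MEG3 array and the other siRNA-NC arrays were below them, so the groups overlapped. The difference of 0.52 ± 0.67 (SE, n = 2 samples per group, 95% interval -1.30 to 2.33) was smaller than the gap of 1.87 between the siRNA-NC samples (limma adjusted p = 0.744). Without siRNA-NC array 2 it was 1.45 (limma adjusted p = 0.129, with the lone control sample assumed to vary like the siRNA-MEG3 samples), so a single control array decided its size.

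Mdm2, the ubiquitin ligase that p53 itself induces, went the other way on the same array in the scaled values. It stood at 3.15, 2.21 and 3.19 under siRNA-NC, against 2.59, 2.56 and 2.56 under siRNA-MEG3. All siRNA-MEG3 arrays lay between siRNA-NC array 2, which was lowest, and the other siRNA-NC arrays. The difference was -0.12 ± 0.39 (SE, 95% interval -1.16 to 0.92, limma adjusted p = 0.910), against a gap of -0.96 between the control samples. Ppm1d, the phosphatase that switches p53 signalling off again, showed the same layout at 0.71, 0.25 and 0.64 against 0.59, 0.44 and 0.54, with a difference of 0.04 ± 0.25 (SE).

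Mdm4, which binds p53 and holds its activity down, did not overlap between the groups. Its values were -1.78, -1.82 and -1.75 under siRNA-NC, against -2.26, -2.49 and -2.30 under siRNA-MEG3, so every siRNA-MEG3 array was lower. The difference was -0.59 ± 0.21 (SE, 95% interval -1.17 to -0.01) and did not pass the adjusted threshold (limma adjusted p = 0.252). A second probe, well above background on 3 siRNA-NC arrays and 1 siRNA-MEG3 array, gave -0.44, but its groups overlapped. It stood at -5.52, -4.93 and -5.21 under siRNA-NC, against -6.27, -4.92 and -6.25 under siRNA-MEG3.

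**Figure D3:**
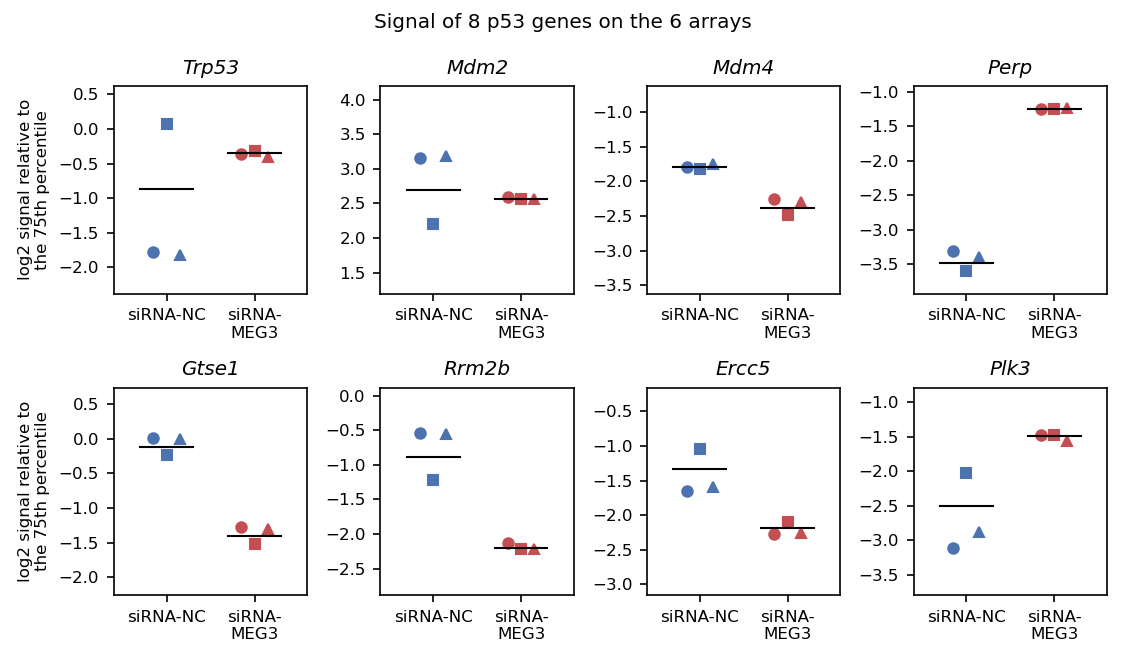
Log2 signal relative to the array's 75th percentile (y axis) for 8 p53 pathway genes, with one point per array (circles for array 1, squares for array 2, triangles for array 3) and a line at the mean of each group's 2 samples. All panels span the same log2 range. For Trp53 the siRNA-NC points run from -1.83 to 0.07 and enclose all siRNA-MEG3 points, while the groups of Perp, Gtse1, Rrm2b and Mdm4 do not overlap.

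The 7 genes of cell cycle arrest were all measured, none passed the test, and their median difference was -0.06. Gtse1, a p53 target that binds microtubules and carries p53 out of the nucleus in G2, came nearest. It stood at 0.00, -0.24 and 0.00 under siRNA-NC, against -1.27, -1.52 and -1.31 under siRNA-MEG3, with every siRNA-MEG3 array lower. The difference was -1.29 ± 0.23 (SE, 95% interval -1.91 to -0.66, limma adjusted p = 0.104).

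Plk3, a kinase of the stress response, stood at -3.11, -2.03 and -2.87 against -1.47, -1.47 and -1.56. Every siRNA-MEG3 array was higher, but the difference of 1.01 ± 0.39 (SE, limma adjusted p = 0.266) was close to the gap of 0.96 between the control samples. Btg2, which slows passage into S phase, stood at 1.22, 1.16 and 0.91 against 1.69, 1.46 and 1.67, without overlap and with a difference of 0.46 ± 0.22 (SE, limma adjusted p = 0.347).

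Ckap2, a spindle protein, stood at 0.58, 0.59 and 0.48 against 0.24, 0.23 and 0.24. Its groups did not overlap either, and the difference was -0.33 ± 0.20 (SE, limma adjusted p = 0.469). The others of this group were Plk2, a kinase of centriole duplication, at 0.35, Zmat3, an RNA binding protein, at -0.24, and Ccng1, cyclin G1, at -0.06. Spots of Btg2, Plk2, Zmat3 and Ccng1 lay in dark regions of the siRNA-MEG3 arrays, as did those of Fas, Xpc and Gdf15. With the spots in such regions left out, the differences were 0.33 for Btg2, 0.30 for Plk2, -0.29 for Zmat3 and -0.14 for Ccng1, and 0.07, 0.21 and 0.45 for Fas, Xpc and Gdf15. For Btg2, Zmat3, Ccng1, Fas and Gdf15 this removed 2 siRNA-MEG3 arrays, so a lone siRNA-MEG3 array stood for the group.

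Of the 9 death genes 8 were measured, 1 rose, and their median difference was 0.02. Perp is a membrane protein of desmosomes that p53 and p63 are known to induce and that takes part in p53-dependent apoptosis in some cells. It stood at -3.31, -3.60 and -3.39 under siRNA-NC, against -1.26, -1.25 and -1.24 under siRNA-MEG3. All 3 siRNA-MEG3 arrays were higher than all siRNA-NC arrays, and the gap between groups was wider than the spread within either. The difference of 2.23 ± 0.22 (SE, n = 2 samples per group, 95% interval 1.63 to 2.82) is a 4.68-fold rise (limma adjusted p = 0.0382). Without siRNA-NC array 2 it was 2.10 (limma adjusted p = 0.129), a setting in which 0 of all genes on the array passed, and the call also ended with the replicate number as a block (adjusted p = 0.0740).

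Beside the rise of Perp, markers of differentiated muscle rose in the same samples. Of 14 such markers 13 were measured, and 10 rose and none fell. Myog, a transcription factor of early differentiation, rose by 3.46 ± 0.22 (SE, limma adjusted p = 0.0222) and Myl1, a myosin light chain, by 6.59 ± 0.32 (SE, limma adjusted p = 0.0185). The summed signal of the measured markers, in units of each array's 75th percentile, was 10.2 to 11.6 on the siRNA-NC arrays and 91.3 to 97.0 on the siRNA-MEG3 arrays. Whether this shift has a part in the rise of Perp was not tested, and in bulk RNA more cells of a type and more RNA per cell cannot be told apart. Of the 9 markers of dividing myoblasts, all measured, none passed the test (median -0.07), with 4 above and 5 below 0. Some differences were large and of both signs. Myf5 stood at -2.87 ± 0.41 (SE, limma adjusted p = 0.0701), Cdh15 at 1.41 ± 0.24 (SE, limma adjusted p = 0.0913) and Myod1 at 2.29 ± 0.43 (SE, limma adjusted p = 0.110).

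The other death genes that were measured did not pass the test. Ei24, an endoplasmic reticulum protein first found as a p53-induced gene, stood at -0.20, 0.12 and -0.20 against -0.51, -0.45 and -0.51. Every siRNA-MEG3 array was lower, with a difference of -0.44 ± 0.23 (SE, limma adjusted p = 0.395). Aen, a nuclease that p53 induces and that cuts DNA in dying cells, stood at 3.04, 2.15 and 2.99 against 2.66, 2.66 and 2.66, so the siRNA-MEG3 arrays lay between siRNA-NC array 2 and the other siRNA-NC arrays.

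The difference of Aen was 0.08, and its control samples were -0.87 apart. The death receptors Fas, at 0.13, and Tnfrsf10b, at 0.11, gave small differences, and the siRNA-NC samples of Tnfrsf10b lay -0.73 apart. Apaf1, the scaffold of the apoptosome, gave -0.06, Phlda3, which restrains Akt at the membrane, -0.03, and Trp53inp1, a stress protein that helps p53 to activate death genes, -0.08. Eda2r, a receptor of the TNF receptor family, was not measured, since its probes were well above background on at most 3 of the 6 arrays.

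All 5 DNA repair genes were measured, none passed the test, and their median of -0.22 was the lowest of the role groups. Rrm2b, the p53-inducible subunit of ribonucleotide reductase that supplies nucleotides outside S phase, stood at -0.54, -1.22 and -0.55 under siRNA-NC, against -2.13, -2.22 and -2.22 under siRNA-MEG3. Every siRNA-MEG3 array was lower. The difference was -1.32 ± 0.31 (SE, 95% interval -2.15 to -0.49, limma adjusted p = 0.145), and a second probe, above background on 3 siRNA-NC arrays and 1 siRNA-MEG3 array, also gave -1.32.

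Ercc5, an endonuclease of nucleotide excision repair, stood at -1.65, -1.04 and -1.59 against -2.27, -2.09 and -2.26. It did not overlap between the groups and differed by -0.85 ± 0.29 (SE, 95% interval -1.63 to -0.07, limma adjusted p = 0.231). Polk, a DNA polymerase that copies past damage, stood at -1.60, -1.39 and -1.63 against -1.05, -1.02 and -1.11. It was higher on every siRNA-MEG3 array, by 0.45 ± 0.22 (SE, limma adjusted p = 0.355). Its second probe gave 0.31, but there the groups overlapped, with siRNA-NC array 2 at -3.94 above siRNA-MEG3 array 2 at -4.09. Both damage sensors of nucleotide excision repair were close to 0, Ddb2 at -0.22 and Xpc at 0.21, so members of one repair pathway had differences of both signs.

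The 7 genes of metabolism and stress were all measured, none passed the test, and their median difference was 0.09. Tigar, an enzyme that lowers fructose 2,6-bisphosphate and turns glucose towards NADPH, stood at -0.96, -1.44 and -1.01 against -0.47, -0.61 and -0.50. Every siRNA-MEG3 array was higher, with a difference of 0.66 ± 0.26 (SE, limma adjusted p = 0.273), but its second probe gave 0.02, so its probes disagreed. Gdf15, a secreted stress cytokine, stood at 0.93, 0.32 and 1.00 against 1.30, 1.12 and 1.30, again without overlap, with a difference of 0.57 ± 0.31 (SE, limma adjusted p = 0.406).

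Ddit4, which restrains mTORC1, stood at 3.03, 2.24 and 3.06 against 3.06, 2.93 and 3.05. In these scaled values siRNA-NC array 2 was lower than the other 5, which spanned 2.93 to 3.06. The difference was 0.34, and -0.06 without that array. Sesn2, a sestrin that senses amino acids and restrains mTORC1, stood at -1.49, -1.57 and -1.40 against -1.16, -2.39 and -1.19. Here siRNA-MEG3 array 2 was the one apart, by -1.21, the only gap above 0.5 between the siRNA-MEG3 samples among the 31 members. Sesn1, the other sestrin of the set, gave -0.01, Dcxr, a carbonyl reductase, -0.14, and Epha2, an ephrin receptor, 0.09. The outlying spot of Epha2 on siRNA-MEG3 array 1 was left out of its value.

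Group by group, the arrays of 15 members did not overlap. Btg2, Plk2, Plk3, Perp, Polk, Tigar and Gdf15, 7 genes, were higher on every siRNA-MEG3 array, where 29.1% of all genes tested were. Mdm4, Gtse1, Ckap2, Zmat3, Ei24, Ddb2, Ercc5 and Rrm2b, 8 genes, were lower on every siRNA-MEG3 array, where 17.7% of all genes tested were. Both directions held genes of arrest, death and repair. When all 6 arrays were entered as separate samples, which counts the nearly identical arrays 1 and 3 as independent, 9 of 30 members passed the limma threshold, 5 higher and 4 lower, while 27% of all genes did. Those 9 were Perp, Plk3, Btg2, Polk and Tigar on the higher side and Gtse1, Rrm2b, Ercc5 and Mdm4 on the lower.

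For many members the control arrays differed from each other by more than the groups did. The gap between the siRNA-NC samples was larger than the difference between the groups for 19 of 31 members, and for 49.8% of all genes tested. Both siRNA-MEG3 samples lay between the siRNA-NC samples for 8 members, Trp53, Mdm2, Ppm1d, Tnfrsf10b, Aen, Xpc, Sesn1 and Dcxr, and for 20.9% of all genes. The median gap between the siRNA-NC samples was 0.32 for members and 0.40 for all genes, against 0.09 and 0.14 between the siRNA-MEG3 samples. siRNA-NC array 2 was lower than the mean of the other control arrays for 20 members and higher for 11, over a range from -0.96 for Mdm2 to 1.87 for Trp53, and it was lower for 66.8% of all genes. Before scaling, the 75th percentile of this array was 2266, against 1168 to 1283 on the other arrays. Unscaled signal on siRNA-NC arrays 1, 2 and 3 was 11425, 10468 and 11096 for Mdm2 and 10547, 10030 and 9700 for Aen. Their low scaled values on array 2 thus went with its high percentile. Trp53 was higher on array 2 before scaling too, at 373, 2375 and 344. In the scaled values Trp53 was highest on array 2 of all 6 arrays, and its target genes Mdm2 and Aen were lowest there. Ppm1d, Fas, Tnfrsf10b, Perp, Sesn1, Ddit4, Tigar and Gdf15 were lowest there too, as was Epha2 among the arrays that held its value. Ei24, Ercc5, Dcxr, Trp53inp1 and, by a narrow margin, Ckap2 were, like Trp53, highest on that array. The 20 members lower there, and the 11 higher with Trp53 among them, stand beside the 66.8% of all genes that were lower on that array. What made the array differ was not tested.

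**Figure D4:**
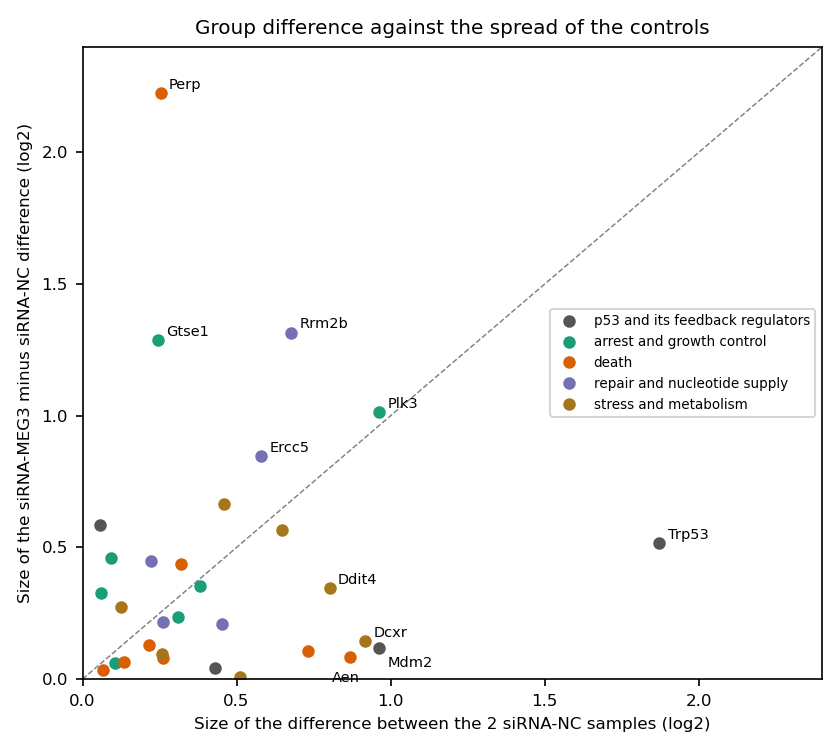
Size, without sign, of the log2 gap between the 2 siRNA-NC samples (x axis) against the size of the log2 difference between siRNA-MEG3 and siRNA-NC (y axis), one point per measured p53 pathway gene coloured by role, with a dashed line where both are equal. The 19 genes below the line, Trp53 furthest right among them, have a wider gap between control samples than between groups, and Perp stands highest above it.

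Members with and without the p53 decamer in the searched promoter were set side by side. The 10 with a decamer ranged from -1.29, for Gtse1, to 0.52, for Trp53, with a median difference of -0.04, and the 14 other measured members with a promoter in the table had a median of 0.11. The decamer of Gtse1 lies after its annotated start. Perp and Rrm2b had no promoter in the table.

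Genes around the pathway showed a like picture. Of 26 kinases and modifiers of p53, 25 were measured and none passed the limma threshold, with a median difference of 0.14. The smallest p-values there belonged to Trp53bp2, a p53 partner that steers it to death genes, at -1.57 ± 0.30 (SE, limma adjusted p = 0.112), and Chek1, a checkpoint kinase, at 0.69 ± 0.21 (SE, limma adjusted p = 0.196). Of 36 further p53 targets outside the set 35 were measured and none passed, 16 above and 19 below 0 with a median of -0.03. Among them Bhlhe40, a transcriptional repressor, differed by 1.05 ± 0.21 (SE, limma adjusted p = 0.117) and Lif, a cytokine, by 1.28 ± 0.35 (SE, limma adjusted p = 0.179).

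Lists that share members' roles were also read. All 14 genes of the ATF4 stress response, which also drives Sesn2, Ddit4 and Gdf15, were measured and none passed (median 0.06), with Atf3 at 1.55 ± 0.26 (SE, limma adjusted p = 0.0932) and Ddit3 at -0.97 ± 0.25 (SE, limma adjusted p = 0.168). Of 20 genes of G2 and mitosis, in which Gtse1 and Ckap2 act, 2 fell and none rose, with 15 above 0 and a median of 0.20. Those were Aurkb, a mitotic kinase, at -3.09 ± 0.35 (SE, limma adjusted p = 0.0486), and Cdk1, the kinase that drives entry into mitosis, at -3.18 ± 0.21 (SE, limma adjusted p = 0.0222). Aurkb missed the threshold in 10 of 20 alternatives, was -1.5 with normexp background correction without the spots of a bright speck and turned to 0.05 with that correction on all spots. The probes of Cdk1 disagreed, since its brightest probe had outlying spots on siRNA-MEG3 arrays 1 and 3 and gave -0.92 with those spots kept (limma adjusted p = 0.180). Markers of other cells did not pass either, with 6 of 7 fibroblast, 4 of 6 macrophage, 4 of 5 adipocyte and 2 of 4 endothelial markers measured and none called. Those not measured were Tcf21, Cd68, Tyrobp, Cfd, Cdh5 and Tek.

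**Figure D5:**
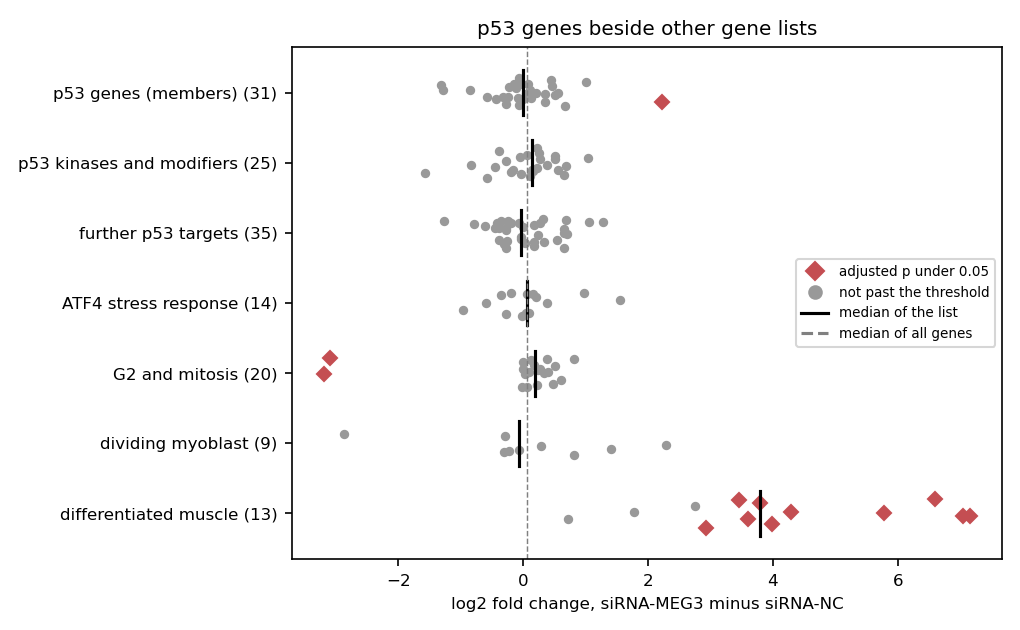
Log2 difference, siRNA-MEG3 minus siRNA-NC (x axis), of each measured gene in each list (y axis, number of measured genes in parentheses), with red diamonds for genes past the limma threshold, grey points for the others, a black bar at the list's median and a dashed line at the median of all genes. The p53 genes and the lists around them centre near 0, while the differentiated muscle markers have a median of 3.80.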

How the data were processed

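RNA of C2C12 cells was hybridised to 6 one-colour Agilent arrays. The deposited scanner files hold spot intensity extracted with Agilent Feature Extraction 11.0.1.1, per the file headers, and the probe design refers to mm9. The processed signal, already background-corrected per the file headers, was used as log2 signal minus the array's 75th percentile. A table of log2 values deposited by the authors, whose step from scanner signal is not stated, served as an alternative. Its columns share a median of 8.11, and its scale and direction were read from the scanner values.

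Of 39429 probes, 27234 took a symbol by accession from a RefSeq table (GRCm38.p6) and 12195 kept an accession. Control and outlying spots were left out, and probes had to be well above background on every array of at least 1 group. The brightest probe stood for a gene. Fits used lmFit and eBayes of limma 3.58.1 (R 4.3.3), with 2 residual degrees of freedom, and were tested on simulated data. Values on each array are given for Trp53, Mdm2, members past the threshold and the 12 members with the smallest p, and, chosen after their values were seen, for Ppm1d, Aen, Ddit4 and Sesn2. Up to 4 genes with the smallest p were named from each list around the pathway. The members, lists and tests were chosen with earlier results of these data known. No alternative was added later. The number of arrays limits precision.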

Additional observations from a re-analysis of the deposited data

How the results depend on the processing

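With 2 samples per group, samples that may be technical repeats, scans that follow the groups and a knockdown that was not measured, the limma calls are fragile. The number of all genes past the threshold, 335, was 5919 with 6 arrays as samples, 2049 with 5 samples (siRNA-MEG3 arrays 1 and 3 averaged, siRNA-NC arrays separate), 1245 with siRNA-MEG3 as 1 sample, 0 with no filter on dim probes (4431 at an unadjusted p below 0.05) and 0 with normexp on all spots (1019 unadjusted). It ran from 0 (without siRNA-NC array 2, a lone control sample) to 2597 (without siRNA-MEG3 array 2) when 1 array was left out, and from 291 to 333 without any one of the others. The other alternatives without a block gave 232 to 472. The number of p53 genes past it, 1, was 9 with 6 arrays and 3 with 5 samples (Gtse1, Perp and Rrm2b), 0 without the filter, 0 with normexp on all spots, 0 with the labels' factor and 0 to 1 when 1 array was left out (0 without siRNA-NC array 2).

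Same-numbered samples did not deviate together (correlations -0.0345, -0.0428 and -0.0327), so the numbers share only a name. With the replicate block the counts of all genes were 166 (4 samples) and 3187 (6 arrays, 14.5%), and those of p53 genes 0 and 3.

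The median over the p53 genes stayed between -0.115 and 0.0823 in all alternatives. Perp was above 0 in all 20 alternatives (1.92 to 2.25, adjusted p 0.000304 to 0.543) and missed the threshold with the block on 4 samples (0.0740), no filter (0.109), normexp on all spots (0.543), the labels' factor (0.0528) and without siRNA-NC array 2 (0.129). With spots in dark regions left out it was 2.21 (0.0261), and with the authors' deposited values 1.97 (0.0393). Of 31 members, 15 kept their sign in all alternatives and 16 did not, and the cause was not tested. Signs turned with normexp on all spots, which moved the median of all genes to 0.57, for Aen (-0.152), Apaf1 (0.0698), Aurkb (0.0468), Ddb2 (0.118), Ddit4 (-0.0267), Epha2 (-0.173), Ercc5 (0.00398), Fas (-0.169), Mdm4 (0.427), Sesn2 (0.639) and Tnfrsf10b (-0.00723). Normexp without the spots of a bright speck, with a median of 0.18, turned Apaf1 (0.0628), Ccng1 (0.0788) and Phlda3 (0.00887). Using 5 samples turned Aen (-0.0623), Dcxr (0.00866), Ppm1d (-0.0311) and Tnfrsf10b (-0.0136), and 6 arrays, with or without the block, Aen (-0.0624), Dcxr (0.000239), Ppm1d (-0.0101) and Tnfrsf10b (-0.0121). Ppm1d also turned with the labels' factor (-0.0151), with outlying spots kept (-0.0369) and with the authors' values (-0.0235), as did Phlda3 with the latter (0.0105) and with quantile normalization (0.00651). The mean of a gene's probes turned Cdkn1a (-0.343) and Trp53inp1 (0.0428), and siRNA-MEG3 as 1 sample Sesn1 (0.0185). Leaving out 1 array at a time also turned signs, over -0.352 to 0.0944 for Aen, -0.131 to 0.0522 for Apaf1, -0.203 to 0.314 for Dcxr, -0.0562 to 0.408 for Ddit4, -0.0347 to 0.165 for Epha2, -0.0816 to 0.00347 for Phlda3, -0.174 to 0.103 for Ppm1d, -0.264 to 0.0721 for Sesn1, -0.338 to 0.332 for Sesn2, -0.258 to 0.122 for Tnfrsf10b and -0.0908 to 0.0488 for Trp53inp1. Without siRNA-NC array 2 no gene named above passed (smallest limma adjusted p 0.129). Aurkb missed the threshold in 10 of 20 alternatives: normexp on all spots, normexp without the speck (-1.5, adjusted p 0.0794), no filter (0.113), the labels' factor (0.0559), quantile normalization (0.0553), the authors' values (0.0584), the mean of probes (0.0542), and with siRNA-NC array 1 (0.0529), siRNA-NC array 2 (0.129) or siRNA-MEG3 array 1 (0.0569) left out.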

Other observations

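Cdkn1a and the BCL2 family genes, only some of which are p53 targets, lie outside the 32, and 4 are given here, chosen after their values were seen. Pmaip1, a BH3-only death gene, rose by 2.70 ± 0.24 on the log2 scale (SE, n = 2 samples per group, limma adjusted p = 0.0304), and without siRNA-NC array 2 the value was 2.53 and did not pass (limma adjusted p = 0.129). Bax, which permeabilises mitochondria, stood at -1.23 ± 0.20 (SE, limma adjusted p = 0.0901). Cdkn1a, the cyclin-dependent kinase inhibitor p21, stood at 0.59 ± 0.25 (SE, limma adjusted p = 0.303), but the mean of its probes was -0.343, so its probes disagreed. Bbc3, another BH3-only gene, stood at -0.28 ± 0.32 (SE, limma adjusted p = 0.703).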
